A study of Rattus norvegicus with 6 samples.

Results

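The genes described are 10 that respond to or restrain MAPK signalling, measured in rat left ventricle with and without diabetes: the immediate early transcription factor genes Fos, Jun, Junb, Egr1, Atf3 and Myc, the immediate early gene Ier2, and the dual-specificity phosphatase genes Dusp1, Dusp6 and Dusp26. Members were all probe sets whose annotated symbol on the array is 1 of these names, which gave 16 of 15866 probe sets: 3 each for Jun and Dusp6, 2 each for Fos and Dusp1, and 1 for each of the others. Total RNA from 3 hearts labelled normal and 3 labelled diabetic was measured on single-colour Affymetrix arrays, 1 array per animal. The strain, sex and age, the way diabetes was produced, its duration, and the time and manner of tissue collection do not appear in the labels used here. The comparison asks which of these transcripts differ in the ventricle in diabetes.

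Immediate early genes are transcribed within minutes of a stimulus, from factors already present in the cell and without new protein synthesis. The mitogen-activated protein kinases (MAPKs) ERK, JNK and p38 carry much of that signal to the nucleus, and the products of Fos and Jun then pair as the AP-1 transcription factor. Dual-specificity phosphatases remove phosphate from both the threonine and the tyrosine that activate a MAPK, and several are themselves induced by the pathway they shut down. In the heart, immediate early genes are known for rapid induction by stretch, by adrenergic and angiotensin signals and by reperfusion.

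Values are signal intensities on the linear scale the authors deposited, with all 6 arrays at the same trimmed mean of 500.2. Only probe sets with a mean signal above the 40th percentile (117.7) entered the test, and 14 of the 16 members did so. Fold changes are diabetic minus normal on the scale log2(signal + 16), which understates changes of dim genes. They were tested with limma over all 9518 tested probe sets, and a probe set is said to have changed where its adjusted p (Benjamini-Hochberg) was under 0.05. The tissue matched its label, since all 9 measured markers of ventricular cardiomyocytes were bright, the lowest signal being 1567.8 for Ryr2. Markers of fibroblasts (Dcn, 12314.5 or more) and endothelium (Kdr, 1792.6 or more) were bright in every array, so the ventricles were mixed tissue. Other listed markers were dim, such as Cd79b at 7.4 to 15.7. In such bulk RNA fewer cells of a type and less RNA per cell cannot be told apart.

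Dusp26 was the only member that changed, and it rose. It encodes a small, atypical dual-specificity phosphatase. Its signal was 93.3, 114.2 and 88 in normal hearts 1, 2 and 3, and 303.5, 444.5 and 346.7 in diabetic hearts 1, 2 and 3. Every diabetic heart therefore lay well above every normal heart, and the gap between the groups was wider than the spread within either. The group means were 98.5 ± 13.9 and 365 ± 72.2 (SD, n = 3 each). The log2 fold change was 1.72 ± 0.18 (SE, 95% interval 1.32 to 2.13, limma adjusted p = 0.00386), or 3.30-fold. By p-value Dusp26 stood at rank 14 of the 9518 probe sets, and by size of rise at rank 24. Among the 14 tested member probe sets it was 1 call, where 2.57% of all tested probe sets were called with 1.38% called higher and 1.2% called lower.

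Dusp26 is a dim probe set, and its call depended on the filter for dim signals. That filter used the mean signal over both groups, which was 231.7 for Dusp26 against a cutoff of 117.7. Every normal heart lay under the cutoff, the highest at 114.2, and the normal mean was 98.5. The diabetic mean was 365, so Dusp26 entered the test through its signal in the diabetic hearts. Without any filter the log2 fold change was the same but the adjusted p was 0.0532, and a filter at the 60th percentile left the probe set out of the test. Leaving out each heart in turn gave log2 fold changes of 1.58 to 1.84 and adjusted p-values of 0.00933 to 0.0209. The call also held without both hearts numbered 1, at 1.81 ± 0.22 (adjusted p = 0.0315).

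**Figure D1:**
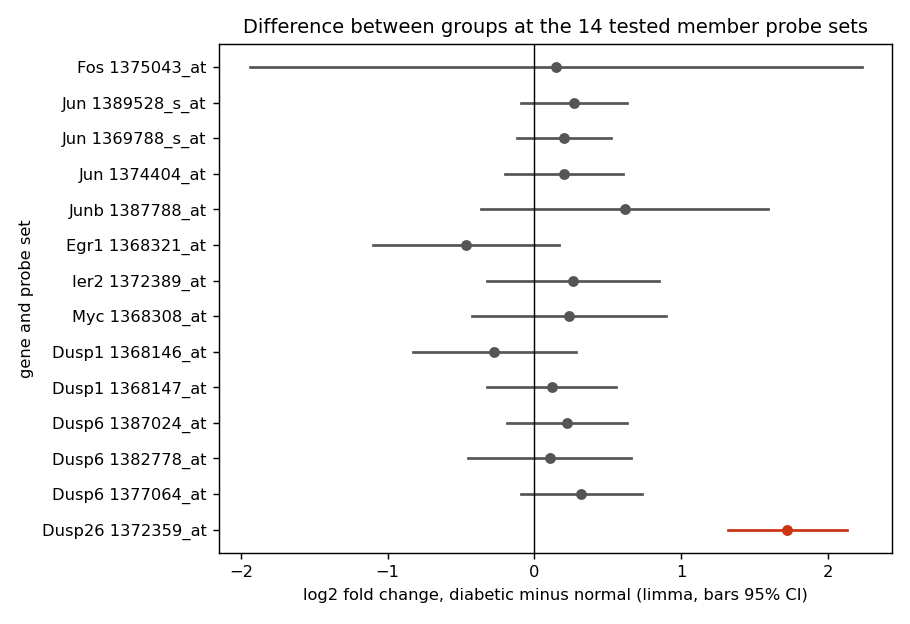
Log2 fold change (horizontal axis, diabetic minus normal) for the 14 tested member probe sets (vertical axis), as points with 95% intervals from limma; red marks an adjusted p under 0.05. Dusp26 lies at 1.72 with an interval of 1.32 to 2.13, and the intervals of the other 13 include 0.

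Some fibroblast markers differed between the same groups as Dusp26. Of 7 tested fibroblast markers 4 fell, the matrix genes Col1a1, Col1a2, Col3a1 and Lum, while Dcn, Pdgfra and Tcf21 were not called. The summed signal of the 8 measured fibroblast markers ran from 32322.4 to 37167.6 in normal and from 20737 to 22011.7 in diabetic hearts. Of the 4 atrial markers Nppa, the atrial natriuretic peptide gene that stressed ventricle also expresses, rose and the other 3 (Myl7, Myl4 and Sln) were not called. The sum of the 4, mostly Nppa, ran from 3871.1 to 5176.2 in normal and from 20565.9 to 30669.1 in diabetic hearts. Without Nppa it was 1360, 353.2 and 609.2 in normal and 833.3, 1318.9 and 791.5 in diabetic hearts, which overlapped. Dusp26 is known from neural tissue and skeletal muscle as well as from heart, and neither the 3 tested skeletal muscle markers nor Npy, the 1 tested neural marker, passed the test. The 5 measured neural and Schwann markers summed to 650.2 to 763.6 in normal and 420.3 to 800.9 in diabetic hearts. Within that sum Npy gave 382.2, 571.3 and 416.8 in normal and 363.6, 182.4 and 230.9 in diabetic hearts. S100b, too dim to be tested, went the other way, at 56.9, 28 and 54.8 against 120.4, 68.3 and 109.1. The dim Dbh, Mbp and Th overlapped between groups. The 6 skeletal muscle markers summed to 35039 to 37678.6 in normal and 30636.4 to 37476.4 in diabetic hearts. Most of that sum was Ckm (20294.7 to 29828.1) and Acta1 (7410.5 to 14458.6), while Myh2, Tnnt3 and Myh4 lay between 3.3 and 91.3. The lowest signals on these 2 lists were 4.5 for Mbp and 3.3 for Tnnt3 and Myh4, in single arrays, and no detection calls were used. The part of these cell types in the Dusp26 result was not tested.

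The other named phosphatases did not pass the test. Dusp1 encodes an inducible nuclear phosphatase that acts mainly on p38 and JNK. Its brighter probe set (1368146_at) gave 3416.1, 2195.3 and 2596.9 in the normal and 2977.2, 2251.6 and 1640.7 in the diabetic hearts, and its other one (1368147_at) gave 702.7, 485.8 and 467.9 against 660.3, 617.3 and 505.7. The groups overlapped at both, and heart 1 was the highest of its group at both. The log2 fold changes were -0.27 ± 0.25 (adjusted p = 0.588) and 0.12 ± 0.19 (adjusted p = 0.795), so the signs of the pair differed although both are annotated to 1 source sequence. With 1 heart left out they ran from -0.48 to -0.06 and from 0.02 to 0.30.

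Dusp6 encodes a cytoplasmic phosphatase selective for ERK. At its brightest probe set (1387024_at) the signal was 854.9, 828.3 and 660.3 in the normal and 1004.9, 1010.5 and 737.6 in the diabetic hearts, which overlapped. The log2 fold changes at its 3 probe sets were 0.22 ± 0.18, 0.32 ± 0.18 (1377064_at) and 0.10 ± 0.25 (1382778_at), with adjusted p-values of 0.547, 0.374 and 0.864. The smallest of these turned negative, at -0.0653 or nearer to 0, with normal 2, diabetic 2 or diabetic 3 left out. The 95% interval at the brightest probe set, -0.19 to 0.63, leaves room for a modest rise and for no difference.

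The AP-1 genes did not pass either, and the spread differed greatly among them. Jun, the main DNA-binding partner in AP-1, was the steadiest member. Its probe set 1369788_s_at gave 881.2, 766.7 and 748 in normal and 971.2, 913.8 and 870.7 in diabetic hearts, and its probe set 1389528_s_at gave 984.3, 773.2 and 972.9 against 1099.1, 985.9 and 1203.8. At the latter every diabetic heart lay above every normal heart, if narrowly, while at the former the lowest diabetic heart lay below the highest normal heart. The suffix of both probe sets marks a design that can match more than 1 transcript. Log2 fold changes at the 3 Jun probe sets were 0.20 ± 0.14, 0.27 ± 0.16 and 0.20 ± 0.18 (1374404_at), with adjusted p-values of 0.478, 0.396 and 0.579. Jun 1389528_s_at and Dusp26 were the 2 of 14 tested member probe sets whose groups did not overlap, where 25.8% of all tested probe sets had no overlap and 12.1% lay higher in diabetes. Both lay higher in diabetes, and 2 of 14 is close to the 12.1% for that direction, though below the 25.8% for either.

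Junb encodes another Jun-family subunit of AP-1. It gave 801.2, 328.6 and 385.6 in the normal and 1410, 513.5 and 523.3 in the diabetic hearts. Heart 1 stood above the others in both groups, and the groups overlapped because normal 1 was above diabetic 2 and 3. The log2 fold change was 0.62 ± 0.43 (95% interval -0.36 to 1.60, adjusted p = 0.474). Without both hearts numbered 1 the groups did not overlap, and the log2 fold change was 0.52 ± 0.18 (adjusted p = 0.212). With single hearts left out it ran from 0.14 to 0.99.

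Fos, the partner of Jun in AP-1, was split by heart and not by group. Its brighter probe set (1375043_at) gave 568.9, 75 and 66 in normal hearts 1, 2 and 3, and 680.8, 63.3 and 90.9 in diabetic hearts 1, 2 and 3. Heart 1 was thus 8.07 times the mean of hearts 2 and 3 in the normal group and 8.83 times in the diabetic group, while hearts 2 and 3 of both groups lay between 63.3 and 90.9. The log2 fold change was 0.15 ± 0.92, with an interval of -1.94 to 2.23 (adjusted p = 0.953). It moved to -0.83 without diabetic 1 and to 1.07 without normal 1, so single hearts set its sign. Without both hearts numbered 1 it was 0.09 ± 0.21 (adjusted p = 0.86). The other Fos probe set (1371283_at) was dim, at 11.7 to 34.9 in normal and 12.5 to 21 in diabetic hearts, and was not tested.

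Atf3 encodes a stress-induced factor of the CREB/ATF family and followed the same split. Its signal was 185.2, 19.4 and 65.7 in the normal and 263.6, 21.1 and 34.8 in the diabetic hearts. Heart 1 was 4.35 times the mean of the other normal hearts and 9.43 times that of the other diabetic hearts, and the groups overlapped. The probe set lay under the dim filter and was not tested in the main comparison. In the fit without a filter its log2 fold change was -0.05 ± 0.91 (adjusted p = 0.989).

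**Figure D2:**
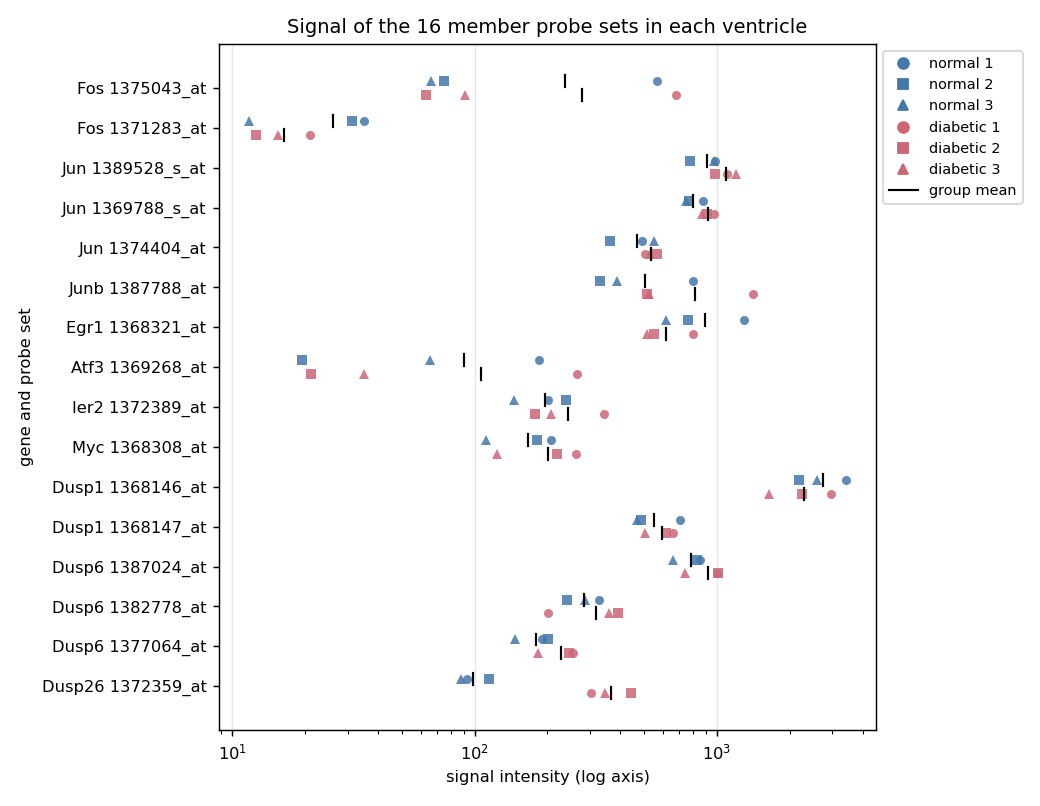
Signal intensity (horizontal log axis) of the 16 member probe sets (vertical axis) in each heart; blue is normal, red diabetic, the symbol gives the heart's number and black ticks are group means. Dusp26 separates the groups, at 88 to 114.2 against 303.5 to 444.5, whereas the circles of hearts numbered 1 stand apart for Fos, Atf3 and Junb.

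Egr1 encodes a zinc finger factor driven by ERK through serum response factor. It gave 1291.4, 764.2 and 616 in the normal and 796.6, 548.5 and 515 in the diabetic hearts. Heart 1 was again the highest in each group, and the groups overlapped. The log2 fold change was -0.47 ± 0.28 (95% interval -1.10 to 0.17, adjusted p = 0.397), and with 1 heart left out it ran from -0.69 without normal 3 to -0.17 without normal 1. Egr1 and the brighter Dusp1 probe set were the 2 of 14 with a negative value, and 12 were positive, where 47.9% of all tested probe sets were positive. These 12 are not independent, since Jun and Dusp6 supply 3 each.

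Ier2, whose product is a short-lived nuclear protein, gave 200.6, 239.3 and 145.9 in the normal and 343.4, 177.1 and 207 in the diabetic hearts. The groups overlapped, and diabetic 1 stood above the rest. Its log2 fold change of 0.26 ± 0.26 (adjusted p = 0.625) was -0.000914 without diabetic 1. Myc encodes a factor that drives growth and ribosome production. It gave 206.2, 181.1 and 111.4 in the normal and 261.7, 218 and 123.3 in the diabetic hearts, with heart 1 the highest and heart 3 the lowest of each group, and the groups overlapped. Its log2 fold change was 0.23 ± 0.29 (adjusted p = 0.715) and was -0.00598 without normal 3.

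The hearts numbered 1 differed from the others in immediate early genes in both groups, a pattern picked out after the values were seen. Of the 14 tested member probe sets, heart 1 was the highest in both groups at 7, heart 2 at 1 and heart 3 at 0, where the shares over all tested probe sets were 12.1%, 10.4% and 11.5%. The 7 were Fos, Junb, Egr1, Myc, Jun 1369788_s_at and both of Dusp1. Heart 1 was more than 2-fold above both others in both groups at 6 of 9518 probe sets, which is 0.063%, and 2 of the 6 were Fos and Junb. The others were Nr4a3, Srxn1, Osgin1 and 1 unnamed probe set. Hearts numbered 2 and 3 gave 0 such probe sets each at the same size. Nothing in the labels says that a number marks a shared day, litter or batch.

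**Figure D3:**
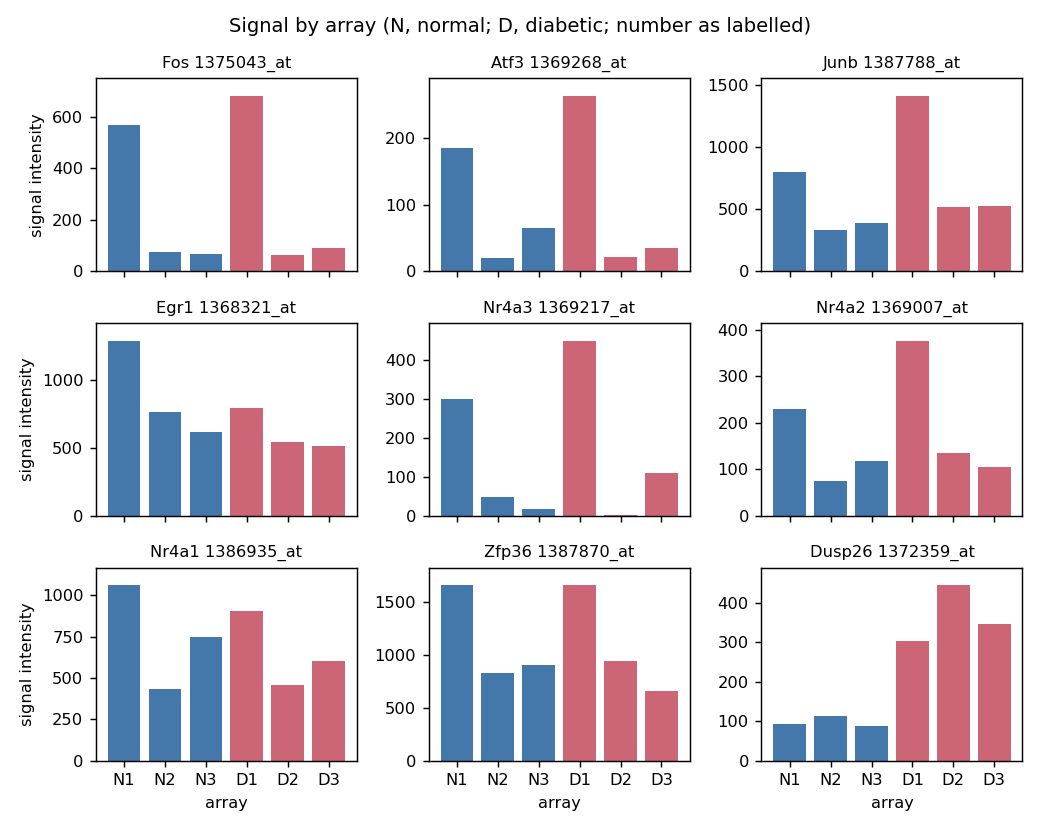
Signal intensity (vertical axes, each from 0) of 9 probe sets in normal (blue, N1 to N3) and diabetic (red, D1 to D3) hearts. For Fos, Atf3, Junb, Nr4a3 and Nr4a2 the bars of N1 and D1 exceed the others, while Dusp26 differs by group.

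The spread within groups differed widely among the members. The within-group SD of log2 signal was 1.65 for Fos, at the 99.97th percentile of all tested probe sets, and 0.75 for Junb, at the 98.9th percentile, against a median of 0.21 over all. It was 0.45 for Egr1, 0.47 for Myc and 0.41 for Ier2, which with Fos and Junb made 5 of 14 members above the 90th percentile of the array. Jun 1369788_s_at, at 0.10, stood at the 9.70th percentile, and Dusp26, at 0.22, near the middle. Fos entered the test only through the heart 1 signals that also set its SD, so its percentile is descriptive only.

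**Figure D4:**
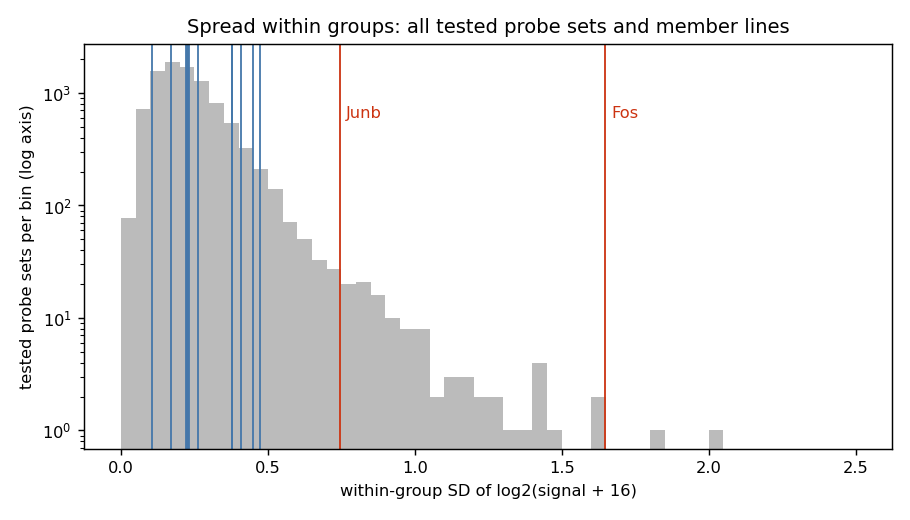
Number of tested probe sets (vertical log axis) by within-group SD of log2(signal + 16) (horizontal axis), with a line for each of the 14 tested member probe sets. Fos at 1.65 and Junb at 0.75 (red) lie in the right tail, and the other members (blue) lie between 0.10 and 0.47.

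The probe sets nearest to Fos in profile were those of Nr4a3, Srxn1 and Nr4a2, with root mean square differences of 0.70, 0.76 and 0.78 between mean-centred log2 signals over the 6 arrays. Nr4a2 and Nr4a3 encode orphan nuclear receptors that are immediate early genes themselves, and Srxn1 encodes sulfiredoxin, an antioxidant enzyme. At that probe set Nr4a3 gave 301.5, 47.9 and 18.4 in normal and 450.7, 3.4 and 110.6 in diabetic hearts, but its other tested probe set gave 291.1, 109.1 and 297.7 against 347.6, 86.9 and 188.9, where normal 3 was as high as normal 1. Srxn1 gave 698, 136.5 and 126.4 in normal and 1287, 490.2 and 262.5 in diabetic hearts. Nearest to Atf3 were Fos (0.50), Nr4a2 (0.59) and Abca2 (0.64), a lipid transporter gene. For Dusp26 the nearest were Pdlim2 (0.14), Eif4ebp1, an inhibitor of translation initiation (0.15), and Myh7, beta-myosin heavy chain (0.17), all higher in each diabetic heart.

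Cell type markers and RNA quality were compared across the same hearts. The summed signal of the 7 measured macrophage and leukocyte markers was 4096.1, 3923.3 and 2866 in normal and 5631.4, 4641.6 and 3444.5 in diabetic hearts. It was highest in heart 1 of each group, the only 1 of 10 marker lists of which this was true. Most of the sum was Lyz2, at 3072.8 in normal 1 and 4395.7 in diabetic 1. Lyz2 and Csf1r were highest in heart 1 of each group, but Cd14, Cd68, Ptprc, Cd3e and Cd79b in 1 group only. None of the 4 tested genes on that list changed between groups. The T cell marker Cd3e, too dim to be tested, gave 5.7, 12 and 14.4 in normal and 57.1, 50.1 and 36.6 in diabetic hearts. The ratio of 3' to 5' signal of the Gapdh control was 1.34, 1.34 and 1.18 in normal and 1.41, 1.28 and 1.25 in diabetic hearts. For beta-actin it was 1.25, 1.84 and 1.33 in normal and 1.23, 1.31 and 1.61 in diabetic hearts, lowest in heart 1 of each group. The part of these measures in the heart 1 pattern was not tested.

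None of the other immediate early genes on the list passed the test between groups. Of 40 listed, 37 were on the array and 28 were tested at their brightest probe set, with 0 called by limma and 7 at an unadjusted p under 0.05, a mark that 19.9% of all tested probe sets reached. Their median log2 fold change was -0.04, beside -0.01 over all tested probe sets. Heart 1 was the highest in both groups for 12 of the 28, heart 2 for 1 and heart 3 for 2, and none of the 28 was more than 2-fold above both other hearts in both groups at its brightest probe set. Nr4a1, which encodes an orphan nuclear receptor, gave 1060.2, 432.1 and 747.4 in the normal and 906.9, 455.2 and 602.8 in the diabetic hearts. Zfp36, whose product speeds the decay of cytokine mRNA, gave 1652.7, 825.7 and 903.7 against 1653, 936.3 and 661.7. The within-group SD was above the array's 90th percentile for 15 of the 28 genes. The 3 with the smallest p were Klf10 (log2 1.03 ± 0.23, adjusted p = 0.0519), Gadd45b (1.17 ± 0.34, adjusted p = 0.102) and Homer1 (-0.58 ± 0.17, adjusted p = 0.105). Klf10, a TGF-beta-inducible zinc finger gene, gave 578.3, 479.4 and 303.2 in normal and 840.2, 999.3 and 913.5 in diabetic hearts, and heart 1 was not the highest of its diabetic group.

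Among 14 tested AP-1 and CREB/ATF dimer partners 1 rose and 0 fell, with a median log2 fold change of 0.10. Of all tested probe sets 1.38% rose and 1.2% fell. Mafk, a small Maf protein that pairs with NRF2, rose from 780.2, 601.4 and 524.5 to 1204.2, 1671.2 and 1078.3 (log2 1.03 ± 0.21, adjusted p = 0.0425). With 1 heart left out, Mafk ran from 0.85 to 1.18 and its adjusted p from 0.0456 to 0.139. Of these settings the call held only without normal 1 and was lost with any other heart left out. Its call was also lost with a pseudocount of 1, at an adjusted p of 0.0547. Nfe2l2, which encodes NRF2, was at 0.56 ± 0.16 (adjusted p = 0.101). Cebpd, a CCAAT-binding factor, was at 0.53 ± 0.23 (adjusted p = 0.25) at its brightest probe set and rose at another (log2 0.83 ± 0.17, adjusted p = 0.0424).

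No other phosphatase gene and no gene of the kinase cascades passed the test. Of 11 tested genes on the list of other dual-specificity and MAPK phosphatases 0 were called by limma and 2 had an unadjusted p under 0.05 (19.9% of all tested probe sets), with a median log2 fold change of -0.01. The smallest p-values belonged to Dusp22, a JNK-pathway phosphatase (-0.43 ± 0.18, adjusted p = 0.223), Ptprr, a tyrosine phosphatase that binds ERK and p38 (0.50 ± 0.21, adjusted p = 0.233), and Dusp14 (0.51 ± 0.24, adjusted p = 0.286). Of 19 tested genes of the ERK cascade 0 were called and 6 had an unadjusted p under 0.05, with a median of -0.10. Pea15, which holds ERK in the cytoplasm, was at -0.81 ± 0.19 (adjusted p = 0.0604), Elk3, an ETS factor that ERK phosphorylates, at -0.85 ± 0.21 (adjusted p = 0.0703), and Mapk6 at -0.59 ± 0.17 (adjusted p = 0.111). For each of these 3 every diabetic heart lay below every normal heart. They were named for their small p-values, so that separation largely follows from the choice. In the same list Pebp1, Grb2 and Mknk1 also lay lower in every diabetic heart and Map2k1 higher, while the rest overlapped. Of all tested probe sets 13.7% lay lower and 12.1% higher. Of 17 tested genes of the JNK and p38 cascade 0 were called and 5 had an unadjusted p under 0.05, with a median of 0.00. Mapk12, the gamma form of p38, was at 0.58 ± 0.15 (adjusted p = 0.0854), Map2k6, a kinase that activates p38, at -0.998 ± 0.29 (adjusted p = 0.103), and Mapk8, which encodes JNK1, at -0.47 ± 0.16 (adjusted p = 0.157).

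Of the genes around Myc, 2 of 15 tested MYC-responsive genes fell and 0 rose, with a median log2 fold change of -0.07. Over all tested probe sets 1.2% fell and 1.38% rose. Ccnd2, which encodes the G1 cyclin D2, fell from 2657.6, 2667.3 and 3437.1 to 1224.6, 1112 and 1299.5 (log2 -1.25 ± 0.16, adjusted p = 0.00727). Nme1, a nucleoside diphosphate kinase gene, fell from 235.5, 269.3 and 276.5 to 94.7, 170.3 and 126.9 (log2 -0.94 ± 0.20, adjusted p = 0.0474). With 1 heart left out its adjusted p ran from 0.0393 to 0.141, and the call held only without diabetic 2. The Nme1 call was also lost with a pseudocount of 1 (adjusted p = 0.0575) and with quantile scaling (adjusted p = 0.0625). Eif4e, the cap-binding translation factor gene, was at -0.53 ± 0.17 (adjusted p = 0.126). None of 7 tested genes of the MYC network was called by limma at its brightest probe set, and the median was 0.08. Of the 7, 2 had an unadjusted p under 0.05, as did 19.9% of all tested probe sets. Max, the obligate partner of MYC, was at 0.60 ± 0.16 (adjusted p = 0.0859) and Mxd1 at -0.23 ± 0.18 (adjusted p = 0.509). Mxi1, a MAX partner that opposes MYC, was at 0.82 ± 0.23 (adjusted p = 0.101), while at a dimmer probe set it rose (log2 0.85 ± 0.16, adjusted p = 0.0291).

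Of 8 tested genes of the integrated stress response, of which ATF3 is a part, 1 rose and 0 fell, with a median of 0.24. Nupr1, a stress-induced chromatin protein gene, rose from 161.4, 144 and 179 to 518.2, 482.4 and 342.1 (log2 1.37 ± 0.19, adjusted p = 0.00896). Herpud1, an endoplasmic reticulum stress gene, was at 0.87 ± 0.24 (adjusted p = 0.0962) and Vldlr, a lipoprotein receptor gene, at -0.37 ± 0.14 (adjusted p = 0.178). In all 4 of 118 tested genes on these lists were called at their brightest probe set, beside 2.57% of all tested probe sets. Without any filter, and without both hearts numbered 1, 0 were called by limma. At an unadjusted p under 0.05 were 27 of 151 genes without a filter and 26 of 118 without those hearts, beside 12.6% and 18.5% of all probe sets tested there.

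Promoter sequences were looked up because Fos, Atf3 and Junb differed together from heart to heart. RefSeq promoters (build GRCr8), 250 bases before to 50 after the gene start, were at hand for 5 members: Junb, Egr1, Ier2, Dusp1 and Dusp6. Searched on both strands were the cyclic AMP response element (CRE) TGACGTCA, its core TGACG (also counted inside a full CRE), the AP-1 site TGANTCA and the CArG box of serum response factor. The CRE was found in Ier2 and Dusp1, and in 1.83% of all 33469 promoters. The core was found in Junb, Egr1, Ier2 and Dusp1, and in 21.2% of all. Egr1 held the CArG box, which 1.64% of all promoters held, and the AP-1 site, in 7.33% of all, matched none of the 5. The 250 bases before the start are shown for 3 members on the plus strand, with Junb as a gene of the heart 1 pattern and Ier2 and Dusp1 as those with a full CRE. Capitals mark the CRE and its cores, which begin 155 bases before the start in Junb (chr19:40080876-40081125), 66 in Ier2 (chr19:40399123-40399372), and 172 and 124 in Dusp1 (chr10:17184603-17184852).
Junb: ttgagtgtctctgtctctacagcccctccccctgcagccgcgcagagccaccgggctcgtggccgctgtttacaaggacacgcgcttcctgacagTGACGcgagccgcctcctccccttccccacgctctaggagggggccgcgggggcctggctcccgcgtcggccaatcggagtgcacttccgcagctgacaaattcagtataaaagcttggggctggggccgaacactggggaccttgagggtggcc
Ier2: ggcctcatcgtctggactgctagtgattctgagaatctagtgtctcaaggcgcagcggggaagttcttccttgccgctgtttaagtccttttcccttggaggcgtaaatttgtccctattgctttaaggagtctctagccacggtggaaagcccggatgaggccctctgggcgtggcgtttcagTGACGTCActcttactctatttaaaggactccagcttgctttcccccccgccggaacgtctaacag
Dusp1: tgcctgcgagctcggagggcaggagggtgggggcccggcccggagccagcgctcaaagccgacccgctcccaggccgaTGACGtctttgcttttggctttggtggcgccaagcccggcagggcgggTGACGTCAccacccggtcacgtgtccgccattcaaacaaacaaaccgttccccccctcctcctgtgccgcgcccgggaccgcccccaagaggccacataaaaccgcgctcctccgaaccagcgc

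Among the 33 other listed immediate early genes with a promoter at hand, 4 held a full CRE (12.1%), 18 a core (54.5%), 4 a CArG box (12.1%) and 1 an AP-1 site (3.03%). The core was held by 5 of the 9 tested genes that were highest in heart 1 of both groups and had a promoter at hand, and by 6 of the 13 other tested genes. These are matches of letters in a short window, and no binding was measured.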

How the data were processed

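Total RNA from left ventricles of 3 normal and 3 diabetic rats was measured with 1 Affymetrix array per animal. The deposited values are linear signal intensities, 1 per probe set and array; how the authors normalized them is not stated in the labels. Trimmed means (2% from each end) were equal on all arrays, so the intensities were used as deposited. Precision is limited by the number of arrays.

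The 57 control probe sets were left out, and 15866 remained: 12783 with 1 gene, 312 with several and 2771 unnamed here. Symbols were updated through a rat gene table (GRCr8), by gene number for 12748, by accession for 2, and as annotated for 33. The pseudocount was 16, and limma 3.58.1 (R 4.3.3) fitted group as its single term, two-sided, with eBayes. An exact permutation test of 3 against 3 cannot go below p = 0.1. The code was tested on simulated data.

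Members and lists were chosen with earlier results of these data known. Named were all members, each list's called genes or else its smallest p-values up to 3, and 3 nearest profiles for each of the 3 most variable members. Other genes were named after their values were seen. Across all tested probe sets same-numbered hearts deviated together little (r = 0.08, 0.03 and 0.01), so numbers were not treated as pairs. That does not cover the immediate early genes, several of which were highest in heart 1 of both groups. With the replicate number as a block the SE of the Fos log2 fold change was 0.17, against 0.92 without it. Alternatives were a pseudocount of 1 or 64, scaling by quantiles or medians, other filters, a replicate block, array weights, an intensity trend or robust prior in eBayes, left-out hearts and a threshold of 0.1. Leaving out both hearts numbered 1 and a filter on mean log2 signal were added after seeing the data. Figures used matplotlib 3.10.9.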

Additional observations from a re-analysis of the deposited data

How the results depend on the processing

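Dusp26 was the 1 member called under all alternatives except no filter and the filter at the 60th percentile, where 0 members were called by limma (1 and 0 at an unadjusted p under 0.05, of 16 and 9 tested). Without a filter more probe sets entered the adjustment, and the unadjusted limma p of Dusp26 was also larger, at 7.05e-05 against 5.93e-06. Its SE was 0.20 against 0.18, and what each added was not tested. With the stricter filter Dusp26 was not tested. Over its 17 alternatives the log2 fold change ran from 1.39 to 1.87 and the adjusted p from 0.00111 to 0.0532. The count over all probe sets, 245, was 386 with a pseudocount of 64, 18 without a filter, 429 with the filter at the 60th percentile, 525 with an intensity trend, 51 without both hearts numbered 1 and 661 at a threshold of 0.1. With 1 heart left out it ran from 96 to 175. The 4 called list genes became 2 with a pseudocount of 1, 7 with 64, 0 without a filter, 8 with the filter at the 60th percentile, 11 with an intensity trend, 0 without both hearts numbered 1 and 10 at a threshold of 0.1, and 2 to 4 with 1 heart left out. The cause of these other shifts was not tested. With the replicate number as a block 163 probe sets, 1 member and 3 list genes were called, with Gadd45b gained (adjusted p = 0.0302) and Mafk (0.0566) and Nme1 (0.0533) lost, and not every heart correlated best with its own number. No other tested member was called under any alternative. Signs turned for 4 members. With 1 heart left out Myc ran from -0.00598 (without normal 3) to 0.52, Ier2 from -0.000914 (without diabetic 1) to 0.45, Dusp6 1382778_at from -0.0653 (without diabetic 2) to 0.39, and Fos from -0.83 (without diabetic 1) to 1.07. Fos was at -0.15 with array weights. The filter on mean log2 signal gave 274, 1 and 5 calls. No detection calls were used, so for dim probe sets such as Atf3 the signal over background is unknown.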

Other observations

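A few further genes were chosen after their values were seen, and only some of them went the other way in the hearts numbered 1. How many of all tested probe sets were lowest in heart 1 of both groups was not counted. Nr1d1, a circadian clock repressor gene, gave 185.8, 484.1 and 926.7 in normal and 479.1, 772 and 869.4 in diabetic hearts, lowest in heart 1 of each group. Nr1d2, its relative, gave 487.9, 767.1 and 1287.9 against 596.5, 1201.9 and 1112.4 at its brightest probe set, also lowest in heart 1 of each group, but at another tested probe set it gave 142.5, 236.3 and 626.2 against 400.4, 338.1 and 372.9. Per1, a clock gene that is also an immediate early gene, gave 825.4, 523.1 and 650.1 against 861.9, 950.4 and 467.7, so heart 1 was the highest in the normal group only. Osgin1, an oxidative stress gene, gave 164.6, 65.7 and 14 in normal and 288.2, 132.2 and 108.6 in diabetic hearts, highest in heart 1 of each group.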
